A study of Mus musculus with 8 samples.

Results

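The genes described here make, sense and move sterols. They are 30 genes, listed by name: 18 enzymes of cholesterol synthesis and 12 genes of sterol sensing, efflux, oxysterol formation, storage and lysosomal export. Any probe set assigned to 1 of these genes alone was taken, which gave 57 probe sets of 27 genes among the 45101 probe sets of the array. Of these 57, 46 were bright enough to be tested, and each of the 27 genes kept at least 1. Acat2, Nr1h2 and Soat1 are not analysed here. The list holds no lipoprotein receptor, so receptors of the further pathway lists stand in for that step below.

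Expression was measured with single-colour arrays on RNA of whole ankle joints from mice of 5 months. Of the 8 arrays, 2 were of wild-type mice. Another 3 were of mice with a human TNFa transgene that overexpress this cytokine and have normal sphingosine kinase 1 (hTNF). The last 3 were of mice with the same transgene that the labels call functionally null for sphingosine kinase 1, the enzyme that makes sphingosine 1-phosphate (hTNF labelled Sphk1 null). A null group without the transgene is not analysed here. Strain, sex, the promoter of the transgene and the kind of null allele are not given in the sources used here. Each label speaks of 1 mouse, and nothing says that mice of a group came from separate litters, so p-values measure the spread between these arrays only.

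Cells build cholesterol from acetyl units. The mevalonate arm of the pathway ends in isoprenoid diphosphates, squalene is made from these, and the sterol arm closes squalene into a ring and trims it to cholesterol. When membrane sterol is low, the transcription factor encoded by Srebf2 is carried to the Golgi, cut and sent to the nucleus, where it turns on the enzymes of synthesis; Insig1 holds it back when sterol is plentiful. Cholesterol that arrives by uptake is freed in lysosomes and exported by Npc2 and Npc1. Excess sterol is sensed through oxysterols by the LXR receptors (Nr1h3 and Nr1h2), whose targets Abca1 and Abcg1 pump cholesterol out of the cell. Macrophages, which take up lipid from dying cells in inflamed joints, rely on that export.

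The promoters of 5 genes that hold, or lack, the letters these factors are known to bind are given before the values. RefSeq windows (build GRCm38.p6) from 250 bases before to 50 after a gene's start were at hand for 24 of the 30 genes. There was none for Abcg1, Fdft1, Fdps, Sqle, Npc1 or Stard4. The 250 bases before the start are printed, 5′ to 3′ on the strand of the gene. Capitals mark matches on either strand to the sterol response core TCACNCCA and to CCAAT, the box bound by a cofactor of the sterol factor. In Abca1 they mark a DR4-like element, the pair of elements GGTNA and GGTCA with 5 bases between them, as LXR receptors are known to bind. Msmo1, Srebf2 and Hmgcs1 are shown because they hold a sterol response core, and Mvd because it rose without one. Abca1 is shown because it alone of the 24 held the DR4-like element. Msmo1 lies at chr8:64733579-64733828 on the minus strand, Srebf2 at chr15:82147019-82147268 on the plus strand and Hmgcs1 at chr13:119690101-119690350 on the plus strand. Mvd lies at chr8:122443423-122443672 and Abca1 at chr4:53159896-53160145, both on the minus strand.
Msmo1: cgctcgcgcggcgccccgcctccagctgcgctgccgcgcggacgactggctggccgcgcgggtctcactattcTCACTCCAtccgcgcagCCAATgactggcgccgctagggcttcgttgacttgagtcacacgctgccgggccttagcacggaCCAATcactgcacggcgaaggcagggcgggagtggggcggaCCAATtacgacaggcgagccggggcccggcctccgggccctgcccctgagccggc
Srebf2: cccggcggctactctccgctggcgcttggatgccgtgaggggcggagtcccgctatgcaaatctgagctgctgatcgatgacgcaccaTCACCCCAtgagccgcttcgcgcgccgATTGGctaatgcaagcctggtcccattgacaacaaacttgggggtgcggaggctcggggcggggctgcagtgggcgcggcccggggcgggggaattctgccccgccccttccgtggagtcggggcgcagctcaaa
Hmgcs1: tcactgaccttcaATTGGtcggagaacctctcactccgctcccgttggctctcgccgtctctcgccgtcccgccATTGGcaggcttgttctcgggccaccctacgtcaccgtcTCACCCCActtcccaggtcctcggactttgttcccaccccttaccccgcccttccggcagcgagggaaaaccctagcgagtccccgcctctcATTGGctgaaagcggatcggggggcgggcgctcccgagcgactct
Mvd: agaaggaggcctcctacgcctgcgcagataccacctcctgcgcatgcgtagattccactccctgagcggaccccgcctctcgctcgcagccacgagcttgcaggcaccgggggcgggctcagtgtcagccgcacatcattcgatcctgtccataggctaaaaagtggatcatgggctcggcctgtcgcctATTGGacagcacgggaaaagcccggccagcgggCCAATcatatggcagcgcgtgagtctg
Abca1: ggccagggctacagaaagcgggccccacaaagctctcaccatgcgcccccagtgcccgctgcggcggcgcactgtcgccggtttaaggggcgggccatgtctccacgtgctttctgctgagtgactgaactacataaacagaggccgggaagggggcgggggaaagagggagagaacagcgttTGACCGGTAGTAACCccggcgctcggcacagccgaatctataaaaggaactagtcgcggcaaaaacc

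The sterol response core was found in the windows of 4 of the 24 genes (Hmgcs1, Msmo1, Srebf2 and Apoe), against 4.97% of the 27025 genes with a window. CCAAT was found in 18 of the 24, and in 14 of 15 synthesis enzymes with a window, against 41.1% of all genes. The DR4-like element was found in 1 of the 24, Abca1, 67 to 53 bases before the start, against 0.226% of all genes. The core lay 177 bases before the start in Msmo1, 162 in Srebf2 and 137 in Hmgcs1. A match is a description of letters, not a bound site, and a window without a match says only that the letters are not in it. Of the genes with a core, Msmo1 and Srebf2 were among those that rose in transgenic joints, while the brightest probe sets of Hmgcs1 and Apoe were not called. A dimmer probe set of Hmgcs1 rose by 0.54 log2 with hTNF. Whether the responses of these genes differ was not tested.

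**Figure D1:**
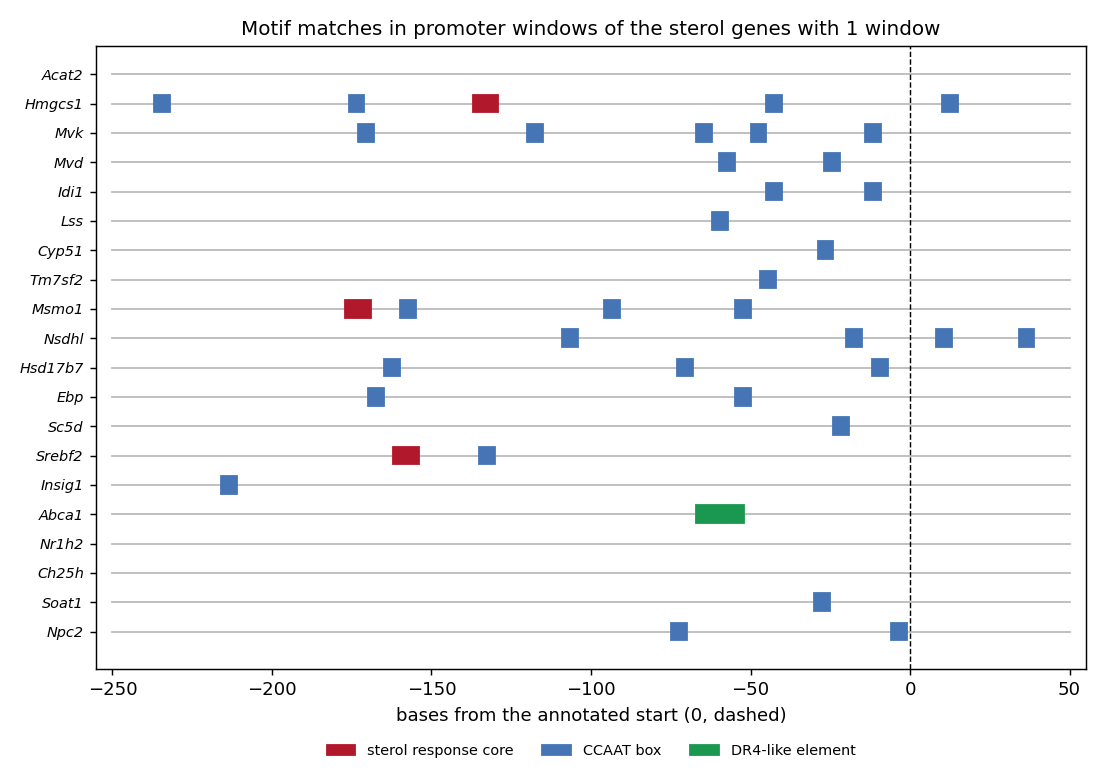
Matches to the sterol response core, CCAAT and the DR4-like element in the promoter windows of the 20 genes with exactly 1 window, whether or not it held a match. The horizontal axis is the distance in bases from the annotated start, from 250 before to 50 after. CCAAT boxes recur in nearly every synthesis enzyme shown, and the sterol response core is drawn for Hmgcs1, Msmo1 and Srebf2. Apoe, which also held a core, has more than 1 window and is not drawn.

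Markers of the labelled tissue were bright: Prg4, the lubricin of joint surfaces, had a mean of 14.5 log2 in wild type and 14.35 with hTNF, and the cartilage gene Comp 13.56 and 13.25. The chondrocyte list that holds Comp was lower in transgenic joints, as given beside the other cell markers. Sphk1 itself was brightest on the arrays labelled null, at 10.22, 9.94 and 10 log2, against 8.63, 8.65 and 8.28 with hTNF and 7.25 and 7.16 in wild type. The probe set is therefore no check of the null label, and whether it lies outside the altered part of the gene is not known. Its difference between the transgenic groups was 1.53 ± 0.13 log2 (SE, adjusted p = 0.0164), and the call ended when any array but the second labelled null was left out, with adjusted p up to 0.19. On wild-type array 2, hTNF array 1 and array 1 labelled Sphk1 null, the female gene Xist read above 10 log2 and the male gene Eif2s3y above 5. The second bound lies below the median of all values, 6.87 log2. These are the arrays of mixed sex-linked signal named below. Markers of macrophages moved with the transgene, those of adipocytes and muscle moved the other way, and skin and marrow markers varied from array to array; their values stand beside the results they touch.

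Sterol genes were higher in hTNF joints than in wild type across synthesis, efflux, lysosomal export and oxysterol formation. Of the 27 measured genes, 17 rose and 0 fell (adjusted p under 0.05, limma with Benjamini-Hochberg adjustment over all 24115 tested probe sets), where 16.5% of the 12362 measured genes of the array rose and 19.6% fell. The median difference of the 27 was 0.62 log2, against -0.02 over all genes. The rise came to at least 1 log2 in 8 genes: Ch25h, Stard4, Cyp51, Abcg1, Sqle, Mvd, Abca1 and Msmo1. In 17 of the 27 genes all 6 transgenic arrays lay above both wild-type arrays, as they did in 23.3% of all genes. A gene is given throughout by its brightest tested probe set, and in whole joints more cells of a type and more RNA per cell cannot be told apart.

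In the mevalonate arm, 3 of 6 measured enzymes rose. Mvd, which makes isopentenyl diphosphate, read 7.38 and 7.55 log2 in wild type, 8.53, 8.52 and 8.71 with hTNF, and 8.67, 8.38 and 8.33 with hTNF labelled Sphk1 null. All 6 transgenic arrays lay above both wild-type arrays, and hTNF joints exceeded wild type by 1.12 ± 0.14 log2 (SE, adjusted p = 0.000378), or 2.18-fold. Fdps, which makes farnesyl diphosphate, read 9.26 and 9.53 in wild type, 10.18, 10.23 and 10.43 with hTNF, and 10.14, 10.02 and 9.90 with hTNF labelled Sphk1 null. Its 3 groups did not overlap, the hTNF arrays being highest, and its rise over wild type was 0.89 ± 0.13 log2 (adjusted p = 0.000936). Idi1, the isomerase between these steps, read 9.13 and 9.53 in wild type and 10.17, 9.90 and 9.98 with hTNF. It rose by 0.69 ± 0.17 log2 (adjusted p = 0.0136), while its dimmer tested probe set gave 0.83 (adjusted p = 0.0602). Its call rests on wild-type array 1, the lower of the pair, without which the difference was 0.49 and the adjusted p 0.136.

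The entry of the arm was not called. Hmgcs1, which makes the substrate of the pathway's rate-limiting step, read 11.48 and 11.99 log2 in wild type, 12.16, 11.79 and 11.96 with hTNF, and 11.94, 11.68 and 11.34 with hTNF labelled Sphk1 null. The wild-type arrays span most of that range, and the difference of 0.24 ± 0.20 was not called (adjusted p = 0.416). Its other 3 tested probe sets gave 0.42, 0.40 and 0.54, of which the last was called (adjusted p = 0.0351). The 2 kinases of the arm, Mvk and Pmvk, differed by 0.29 (adjusted p = 0.109) and 0.06 (adjusted p = 0.831).

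In the squalene and sterol arm, 7 of 11 enzymes rose, and the largest rises were those of Sqle, Cyp51 and Msmo1. Sqle, the squalene epoxidase and a second point of control of the pathway, read 9.10 and 9.42 log2 in wild type, 10.45, 10.31 and 10.61 with hTNF, and 10.40, 10.21 and 9.99 with hTNF labelled Sphk1 null. Its rise was 1.20 ± 0.16 log2 (adjusted p = 0.000483), or 2.29-fold, with no overlap between wild-type and transgenic arrays. Cyp51, the lanosterol demethylase, read 7.83 and 8.13 in wild type, 9.16, 9.08 and 9.45 with hTNF, and 9.35, 9.15 and 8.95 with hTNF labelled Sphk1 null. Its rise was 1.25 ± 0.16 log2 (adjusted p = 0.000529), or 2.38-fold, numerically the largest of the measured synthesis enzymes and within the error of that of Sqle. Msmo1, the methyl sterol oxidase that acts downstream of it, read 9.35 and 9.71 in wild type, 10.78, 10.43 and 10.68 with hTNF, and 10.66, 10.56 and 10.16 with hTNF labelled Sphk1 null, and rose by 1.1 ± 0.18 (adjusted p = 0.0015). The first printed promoter, with a core and CCAAT boxes, is that of this gene.

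Smaller rises were seen at the cyclisation and at the last steps. Lss, which closes the ring, read 7.14 and 7.11 log2 in wild type and 7.73, 7.97 and 7.96 with hTNF, a rise of 0.76 ± 0.14 (adjusted p = 0.00262), while its dimmer tested probe set gave 0.34 (adjusted p = 0.36). Dhcr7, a reductase of the last steps, read 7.97 and 7.82 in wild type and 8.73, 8.75 and 8.80 with hTNF, a rise of 0.87 ± 0.14 (adjusted p = 0.00168). Ebp, the sterol isomerase, rose by 0.53 ± 0.13 (adjusted p = 0.0104), from 9.87 and 9.96 to 10.32, 10.56 and 10.45, and lost its call without wild-type array 1 (adjusted p = 0.0795). The dimmer tested probe set of Hsd17b7, a reductase of the demethylation complex, gave 0.28 (adjusted p = 0.245). The brighter one stood at 8.84 and 8.79 in wild type and 9.32, 8.96 and 9.39 with hTNF. Its difference of 0.41 ± 0.14 was just under the threshold (adjusted p = 0.0474), and the call ended in 14 of 19 alternatives, with adjusted p up to 0.239.

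The remaining enzymes of the arm were not called. Fdft1, which commits farnesyl diphosphate to squalene, differed by 0.03 (adjusted p = 0.904) and Sc5d, a desaturase, by 0.02 (adjusted p = 0.936). Nsdhl, the partner of Hsd17b7 in demethylation, differed by 0.30 (adjusted p = 0.0801) and was called in 1 alternative, without the 3 arrays of mixed sex-linked signal (adjusted p = 0.0363). Tm7sf2, a sterol reductase whose step Lbr also carries out, was the 1 enzyme with a lower mean in hTNF joints: it read 7.66 and 7.72 in wild type, 7.31, 7.44 and 7.40 with hTNF, and 7.38, 6.88 and 7.17 with hTNF labelled Sphk1 null. All 6 transgenic arrays lay below wild type, but the difference of -0.31 ± 0.16 was not called (adjusted p = 0.17), except where only the arrays of the 2 groups were fitted (adjusted p = 0.0445).

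**Figure D2:**
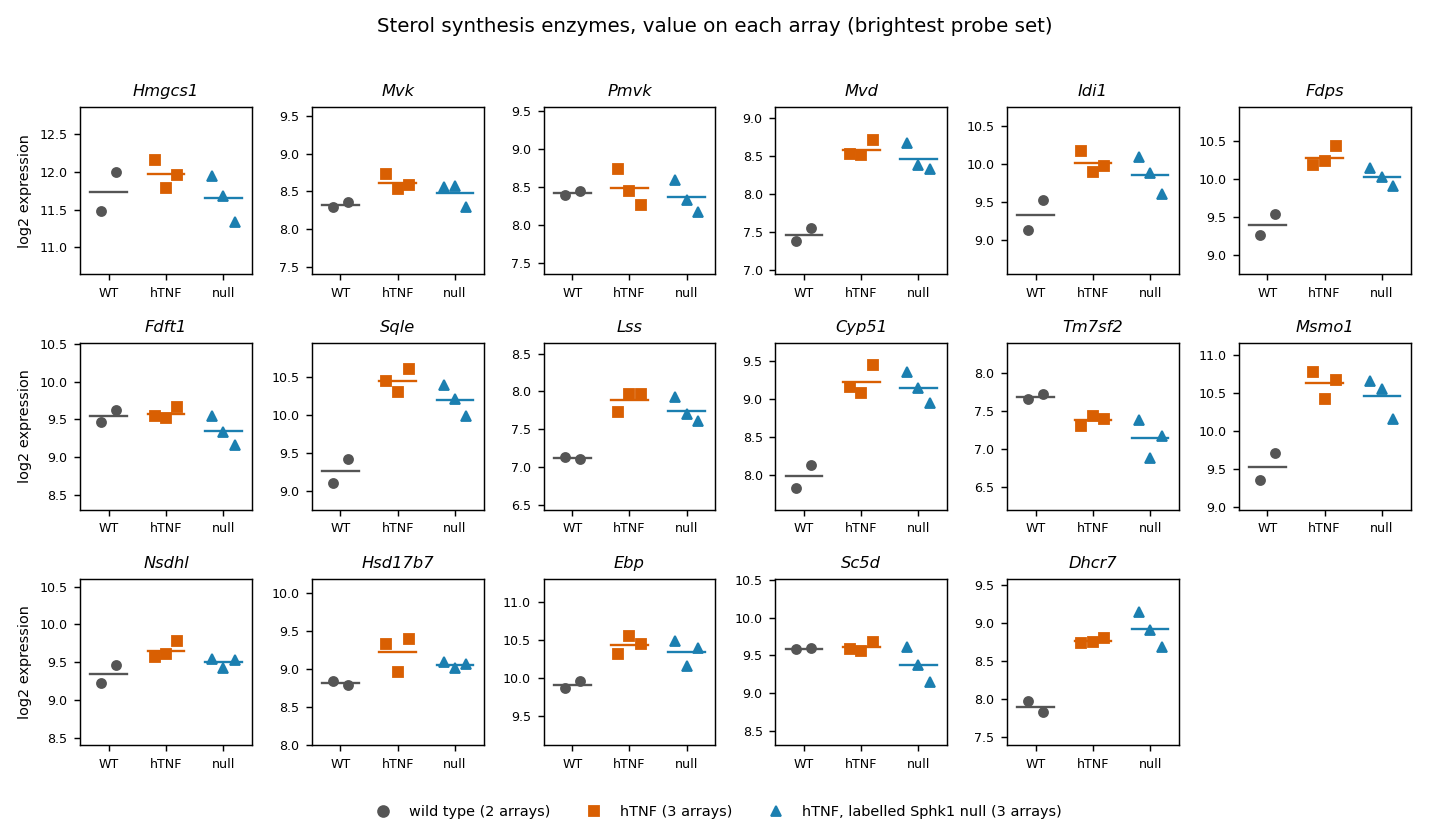
Log2 expression of the 17 measured synthesis enzymes on each of the 8 arrays, with wild type (WT), hTNF and hTNF labelled Sphk1 null side by side; points are single arrays, lines are group means and all panels span the same number of log2 units. In 10 enzymes all 6 transgenic arrays lie above both wild-type arrays, with the widest gap in Cyp51 (7.83 and 8.13 in wild type, 8.95 to 9.45 in transgenic joints).

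Among the genes of sensing, the sterol carrier Stard4, a target of the Srebf2 factor that moves cholesterol between membranes, had the largest rise. It read 7.82 and 8.14 log2 in wild type, 9.41, 9.27 and 9.38 with hTNF, and 9.26, 8.94 and 8.93 with hTNF labelled Sphk1 null. The rise over wild type was 1.37 ± 0.15 log2 (adjusted p = 0.000178), or 2.59-fold, and its other tested probe sets rose by 1.72 and 0.91. Srebf2 read 9.91 and 9.62 in wild type, 10.12, 10.58 and 10.45 with hTNF, and 10.61, 10.51 and 10.57 with hTNF labelled Sphk1 null. It rose by 0.62 ± 0.15 (adjusted p = 0.0108), a call that ended without wild-type array 2 (adjusted p = 0.0926), while its other tested probe set rose by 0.91. Insig1, itself a target of the factor, read 8.91 and 9.11 in wild type, 9.07, 8.93 and 8.94 with hTNF, and 9.11, 8.58 and 8.54 with hTNF labelled Sphk1 null. The groups overlapped, and the difference of -0.03 ± 0.17 was not called (adjusted p = 0.922).

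Both efflux pumps rose. Abca1, which loads cholesterol onto lipid-poor apolipoproteins, read 11.41 and 11.64 log2 in wild type, 12.48, 12.66 and 12.80 with hTNF, and 12.84, 12.75 and 12.77 with hTNF labelled Sphk1 null. Its rise was 1.12 ± 0.11 log2 (adjusted p = 0.000118), or 2.18-fold, and its dimmer probe sets rose by 1.59 and 1.91. Abcg1, which passes cholesterol to mature lipoprotein particles, read 9.27 and 9.43 in wild type, 10.73, 10.44 and 10.62 with hTNF, and 10.43, 10.78 and 10.40 with hTNF labelled Sphk1 null, a rise of 1.25 ± 0.14 (adjusted p = 0.000274), or 2.37-fold. Apoe, the apolipoprotein that accepts cholesterol from macrophages, was not called, with a difference of -0.14 (adjusted p = 0.515); it read 12.97 and 13 in wild type and 12.64, 12.94 and 12.94 with hTNF. Nr1h3, the LXR receptor of macrophages, was dim, at 7.79 and 7.61 in wild type and 7.28, 7.68 and 7.63 with hTNF, and its difference of -0.17 was not called (adjusted p = 0.443).

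Ch25h, which makes an oxysterol that restrains Srebf2 processing and guides immune cells, showed a large difference with the largest standard error of the 27 genes. It read 7.04 and 7.54 log2 in wild type, 9.77, 8.51 and 8.63 with hTNF, and 8.25, 8.58 and 8.40 with hTNF labelled Sphk1 null. All transgenic arrays lay above wild type, and hTNF array 1 stood more than 1 log2 above the others of its group. The rise was 1.68 ± 0.34 log2 (adjusted p = 0.00443), or 3.20-fold, and without wild-type array 1 it was 1.43 with an adjusted p of 0.0502. Without hTNF array 1 it was 1.28 (adjusted p = 0.00143), below the 1.34 of Stard4 in the same fit.

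The pair of lysosomal export genes rose together. Npc2, the soluble carrier inside the lysosome, read 12.59 and 12.86 log2 in wild type, 13.37, 13.43 and 13.51 with hTNF, and 13.34, 13.47 and 13.43 with hTNF labelled Sphk1 null, a rise of 0.71 ± 0.09 (adjusted p = 0.00045). Npc1, the membrane protein that takes cholesterol from it, read 8.90 and 8.69 in wild type, 9.45, 9.36 and 9.42 with hTNF, and 9.65, 9.39 and 9.52 with hTNF labelled Sphk1 null, a rise of 0.62 ± 0.12 (adjusted p = 0.0037). In both genes wild-type and transgenic arrays did not overlap. Probe sets of a gene mostly had the same sign: of 14 genes with several tested probe sets, all of them shared the sign in 12 and the call in 10.

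**Figure D3:**
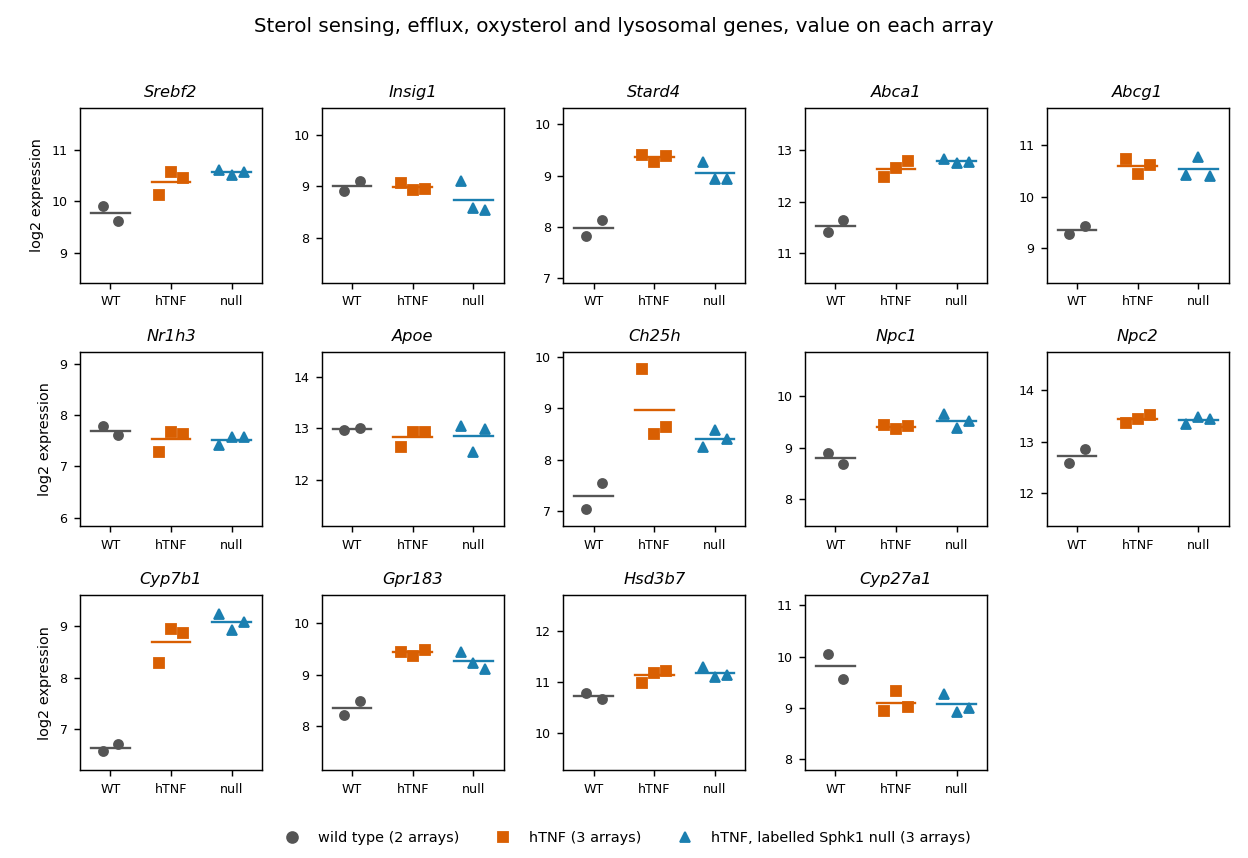
Log2 expression on each array of the measured genes of sterol sensing, efflux, oxysterol formation and lysosomal export, with Cyp7b1, Gpr183, Hsd3b7 and Cyp27a1 of the further pathway list; points are single arrays, lines are group means and all panels span the same number of log2 units. Wild-type and transgenic arrays are apart for Stard4, Abca1, Abcg1, Npc1, Npc2, Ch25h, Cyp7b1 and Gpr183 and overlap for Insig1 and Apoe.

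Further genes of the pathway were called in both directions. Of 15 measured further genes of sterol synthesis and sensing, 3 rose and 3 fell, with a median difference of 0.03 log2; over all genes 16.5% rose and 19.6% fell, so both counts are near the background. Those with the largest called changes were Acss2, which makes acetyl-CoA from acetate (-0.86 ± 0.15, adjusted p = 0.00203), Tmem97, which binds Npc1 (0.78 ± 0.15, adjusted p = 0.00312), Acat1, the mitochondrial thiolase (-0.73 ± 0.09, adjusted p = 0.000399), and Erlin1, which helps hold back the sterol factor (0.58 ± 0.10, adjusted p = 0.00166). Also called were Aacs (0.50, adjusted p = 0.0206) and Rnf139 (-0.38, adjusted p = 0.0271), named after their values were seen. Both calls ended with the replicate block and without hTNF array 2 or 3, that of Rnf139 also without hTNF array 1. In those fits adjusted p reached 0.0771 for Aacs and 0.085 for Rnf139. Both calls also ended without either wild-type array. Aacs differed by 0.41 without wild-type array 2, and Rnf139 by -0.32 without wild-type array 1. Srebf1, the sister gene of Srebf2 that drives fatty acid synthesis, was not called (-0.27, adjusted p = 0.115).

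Of 32 measured further genes of uptake, transport, storage, efflux and oxysterols, 12 rose and 6 fell, beside 16.5% and 19.6% of all genes, so the falls are near the background; the median was 0.20 log2. Cyp7b1, which hydroxylates the oxysterol made by Ch25h into the ligand of the receptor Gpr183, read 6.57 and 6.70 in wild type, 8.29, 8.94 and 8.87 with hTNF, and 9.23, 8.93 and 9.09 with hTNF labelled Sphk1 null. It rose by 2.06 ± 0.19 log2 (adjusted p = 0.000101). Gpr183 read 8.21 and 8.48 in wild type, 9.45, 9.37 and 9.48 with hTNF, and 9.45, 9.23 and 9.12 with hTNF labelled Sphk1 null, and rose by 1.09 ± 0.13 (adjusted p = 0.000368). Ch25h, Cyp7b1 and Gpr183 were each higher on every transgenic array than on either wild-type array, as were 23.3% of all genes. Hsd3b7, which degrades the ligand and was chosen after its values were seen, differed by 0.40 ± 0.11 (adjusted p = 0.0197), and its call ended in 5 of 19 alternatives, among them the fits without either wild-type array, hTNF array 2 or hTNF array 3, with adjusted p up to 0.118. Cyp27a1, which makes another oxysterol and was likewise chosen after its values were seen, fell by 0.71 ± 0.18 (adjusted p = 0.015), a call that ended without wild-type array 1 (adjusted p = 0.154) or hTNF array 3 (adjusted p = 0.0506). The scavenger receptor Msr1 rose by 1.80 ± 0.19 (adjusted p = 0.000175) and the lysosomal acid lipase Lipa by 1.18 ± 0.21 (adjusted p = 0.00239).

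Lipoprotein and scavenger receptors of the same list went both ways, and those named here too were chosen after their values were seen. The scavenger receptor Cd36 fell in both transgenic groups. Over the 19 alternatives its difference from wild type ran from -1.17 to -0.77 log2 with hTNF. With hTNF labelled Sphk1 null it ran from -1.12 to -0.72. Lrp8 rose by 0.71 ± 0.15 (adjusted p = 0.00578), a call that ended without wild-type array 1 (adjusted p = 0.0651). Vldlr fell by 0.99 ± 0.28 (adjusted p = 0.0246), a call that ended without either wild-type array, hTNF array 2 or hTNF array 3, with adjusted p up to 0.146. Lrp1 (0.36 ± 0.11, adjusted p = 0.0378) and Scarb1 (-0.53 ± 0.17, adjusted p = 0.0427) were called in the main analysis and lost the call in 10 and 11 of 19 alternatives, with adjusted p up to 0.298 and 0.161.

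Fatty acid synthesis is the other branch under SREBP factors; its difference from the sterol enzymes was not tested. Of 12 measured genes 2 rose and 6 fell, beside 16.5% and 19.6% of all genes, so the rises are near the background, with a median of -0.42 log2, or -0.58 with hTNF labelled Sphk1 null. The largest falls were those of Lpin1, a phosphatidate phosphatase (-1.49 ± 0.15, adjusted p = 0.000153), Gpam, which starts triglyceride assembly (-1.26 ± 0.20, adjusted p = 0.00133), Me1, the malic enzyme (-1.1 ± 0.18, adjusted p = 0.00146), and Scd1, the stearoyl desaturase (-1.02 ± 0.19, adjusted p = 0.00268). The 2 that rose, named after their values were seen, were Fads2 (0.94 ± 0.21, adjusted p = 0.00777, or 0.0574 without wild-type array 2) and Elovl5 (0.35 ± 0.11, adjusted p = 0.0413), both desaturation or elongation enzymes of polyunsaturated fatty acids; the call of Elovl5 ended in 12 of 19 alternatives, with adjusted p up to 0.303. All 11 measured adipocyte markers fell as well, by a median of 1.71 log2; their mean level was 11.35 and 11.41 in wild type and 8.94 to 9.51 in transgenic joints. The part of adipocyte content in the falls was not tested.

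Cell markers also moved with the sterol genes. Of 20 macrophage and monocyte markers 18 rose and 0 fell, where 16.5% of all genes rose and 19.6% fell; their median difference was 1.79 log2, and their mean level was 9.70 and 9.75 in wild type, 11.18, 11.48 and 11.55 with hTNF, and 11.73, 11.53 and 11.48 with hTNF labelled Sphk1 null. Msr1 is on that list too. Of 10 proliferation markers 6 rose, with mean levels of 6.67 and 8.22 in wild type and 8.47 to 8.84 in transgenic joints. Of 8 osteoclast markers 6 rose (median 1.55), with mean levels of 8.29 and 9.26 in wild type and 9.92 to 10.38 in transgenic joints. Of 12 synovial and connective tissue fibroblast markers 7 rose (median 0.62), with mean levels of 11.96 and 12.05 in wild type and 12.69 to 12.83 in transgenic joints. The part of any of these in the sterol rises was not tested, and macrophage level and transgene cannot be told apart in these arrays.

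Other cell markers were lower in transgenic joints. Of 20 skeletal muscle markers 19 fell in hTNF joints (median -1.09) and 20 in joints labelled Sphk1 null (median -1.47), with mean levels of 13.94 and 13.88 in wild type and 12.10 to 12.89 in transgenic joints. Of 9 chondrocyte markers 6 fell and 1 rose with hTNF (median -1.14), with mean levels of 11.13 and 10.91 in wild type and 9.78 to 10.14 in transgenic joints. Of 11 endothelial markers 9 fell and 0 rose with hTNF (median -0.55). In joints labelled Sphk1 null 4 of them fell, 0 rose and 7 were not called (median -0.31). Of 8 Schwann cell and myelin markers 7 fell and 1 rose in each transgenic group (median -0.76 in each). Over all genes 16.5% rose and 19.6% fell with hTNF, and 19.1% rose and 23.8% fell in joints labelled Sphk1 null. The part of these cell types in the sterol differences was not tested.

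Skin and marrow, where sterol synthesis is also active, varied within groups. The mean level of 19 skin markers was 7.94 and 7.03 in wild type, 11.15, 6.44 and 8.38 with hTNF, and 9.79, 6.61 and 8.90 with hTNF labelled Sphk1 null. All 19 had a higher mean in hTNF joints than in wild type, with a median difference of 1.17 log2. In joints labelled Sphk1 null 16 were higher and 3 lower than in wild type (median 1.09). Of the 19, 0 were called with hTNF, where 16.5% of all genes rose and 19.6% fell. In joints labelled Sphk1 null 0 were called, where 19.1% rose and 23.8% fell. The mean level of the synthesis enzymes was 8.82 and 8.99, then 9.47, 9.39 and 9.52, then 9.48, 9.27 and 9.15. The part of skin content in the synthesis levels was not tested beyond the fit with the skin level as a covariate. The mean level of 13 neutrophil and marrow markers was 7.53 and 10.64 in wild type, 9.88, 8.97 and 9.94 with hTNF, and 9.14, 9.65 and 10.80 with hTNF labelled Sphk1 null. The median difference of the 13 was 0.68 log2 with hTNF and 0.91 with hTNF labelled Sphk1 null, and 0 were called in either group. With the skin level as a covariate 16 sterol genes rose in hTNF joints and 15 in joints labelled Sphk1 null. With the marrow level as a covariate the counts were 16 and 14.

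**Figure D4:**
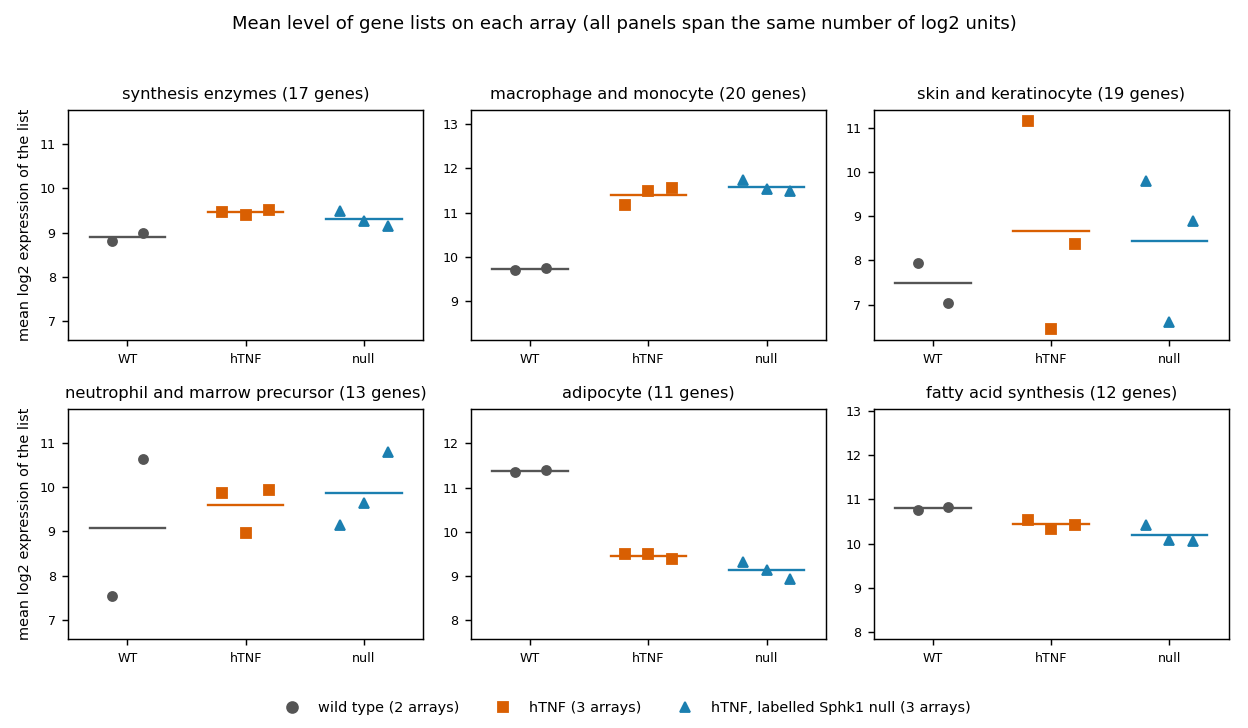
Mean log2 expression of gene lists on each array, by group; points are single arrays, lines are group means and all panels span the same number of log2 units. Synthesis enzymes and macrophage markers lie higher in all transgenic arrays, adipocyte markers and fatty acid synthesis genes lower, and skin markers range from 6.44 to 11.15 within the hTNF group.

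The joints of hTNF mice labelled Sphk1 null, set against the same wild-type arrays, showed nearly the same set. Of 27 genes 16 rose and 1 fell, where 19.1% of all genes rose and 23.8% fell. All 16 were among the 17 of the other comparison; since both share their wild-type arrays, the overlap is no independent support, and the values stand side by side. Abca1 differed from wild type by 1.26 in these joints and by 1.12 in hTNF joints, Abcg1 by 1.19 and 1.25, Cyp51 by 1.17 and 1.25, Ch25h by 1.12 and 1.68, and Stard4 by 1.06 and 1.37. Dhcr7 differed by 1.02 and 0.87, Mvd by 1.00 and 1.12, Sqle by 0.94 and 1.20, Msmo1 by 0.93 and 1.1, and Srebf2 by 0.80 and 0.62.

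Of these joints' own calls, some rest on few arrays. Tm7sf2 was the gene that fell, by 0.55 log2 (adjusted p = 0.0205), and it lost the call when wild-type array 1 or 2 or array 3 of its own group was removed (adjusted p = 0.0796, 0.103 and 0.0508), with the replicate block (0.0507) and with only the 2 groups fitted (0.0551). Hsd17b7 was not called (0.24, adjusted p = 0.208). The rise of Ch25h (1.12, adjusted p = 0.0258) was not called with the marrow level as a covariate (adjusted p = 0.0513). Nor was it called without array 2 or 3 of its own group (adjusted p = 0.0669 and 0.0623). Without wild-type array 1 the difference of Ch25h was 0.87. The rises of Ebp (0.44, adjusted p = 0.0215) and Idi1 (0.53, adjusted p = 0.0369) lost their calls in 5 and 9 of 19 alternatives, with adjusted p up to 0.126 and 0.286, both without wild-type array 1. That of Fdps (0.63, adjusted p = 0.0044) reached 0.0517 without that array, and that of Lss (0.62, adjusted p = 0.00623) was not called over the mean of its probe sets (adjusted p = 0.315). The second tested probe set of Fdft1 fell by 0.76 (adjusted p = 0.0095), from 9.14 and 9.41 in wild type to 8.86, 8.20 and 8.49, while the brighter one was at -0.20 (adjusted p = 0.279).

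Between the transgenic groups no sterol gene was called. Of 12362 genes, 2 were called in either direction (0.0162%), and of the 27 sterol genes 0, in the main analysis and in all 19 alternatives. At an unadjusted p under 0.05 there was 1 sterol gene, Stard4, where 6.27% of all genes passed. Stard4 was lower by 0.31 ± 0.13 log2 in joints labelled Sphk1 null (adjusted p = 0.651), with a 95% interval of the difference from -0.60 to -0.02. The widest interval was that of Ch25h, from -1.24 to 0.12, around a difference of -0.56; for Abca1 it ran from -0.08 to 0.36, for Abcg1 from -0.35 to 0.23, for Cyp51 from -0.41 to 0.25 and for Sqle from -0.57 to 0.06. These intervals hold differences in both directions for most of the genes, and equality of the groups is not shown.

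Most synthesis enzymes had a slightly lower mean in joints labelled Sphk1 null, a difference that passed no test gene by gene. In 16 of the 17 the mean was below that of hTNF joints, with a median difference of -0.16 log2, where 54.8% of all genes had a lower mean and their median was -0.02. The exception was Dhcr7 (0.15). The arrays of 1 group share their RNA across all genes, so the 17 enzymes are not separate observations, and no test was made of the count. Array 3 of the joints labelled Sphk1 null was the lowest of the 6 transgenic arrays in 13 of the 17 enzymes and array 2 of that group in 3. Array 1 of that group was the lowest in 0, and its mean synthesis level of 9.48 lay inside the 9.39 to 9.52 of the hTNF arrays.

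All 3 arrays labelled Sphk1 null lay below all 3 hTNF arrays in 3 sterol genes, Stard4, Fdps and Nsdhl, and above them in 0, where 4.91% of all genes lay below and 5.1% above. Fdps differed by -0.26 (adjusted p = 0.662) and Nsdhl by -0.15 (adjusted p = 0.755). The second probe set of Fdft1 had the smallest p of the 46 tested probe sets, at -0.66 log2 (adjusted p = 0.54), with 9.28, 9.09 and 9.15 on hTNF arrays against 8.86, 8.20 and 8.49. The dimmer probe sets of Abca1 pointed the other way, at 0.65 (adjusted p = 0.65) and 0.86 (adjusted p = 0.62), where its brightest gave 0.14 (adjusted p = 0.747).

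**Figure D5:**
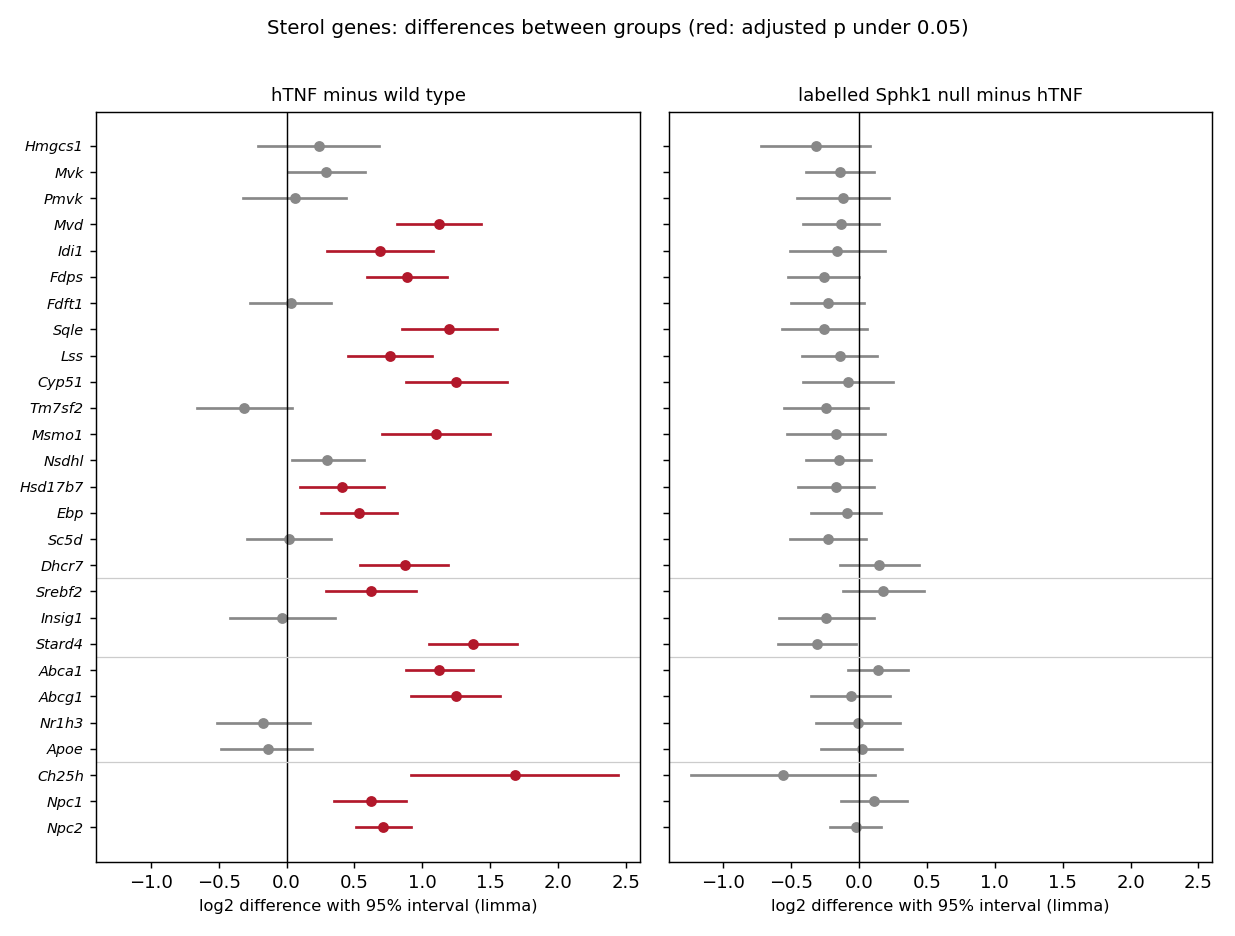
Log2 differences with 95% intervals (limma) for the 27 measured sterol genes, hTNF minus wild type on the left and hTNF labelled Sphk1 null minus hTNF on the right; red marks an adjusted p under 0.05. On the left 17 genes are called, all above 0, and on the right none of the 27 is called, with Ch25h having the widest interval.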

How the data were processed

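The 8 arrays (2 wild type, 3 hTNF, 3 hTNF labelled Sphk1 null) were grouped by the labels. The values are log2 expression as deposited by the authors, for 45101 probe sets. The tools Affymetrix Expression Console, RMA and MAS5 are listed, per the submitters' processing notes, with no role given for each. Array medians lay between 6.84 and 6.89, so levels are relative within an array, and such values can understate changes at either end of the brightness range. For arrays, their number limits the precision.

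Probe sets were named through the platform annotation and its gene identifiers in a GRCm38.p6 RefSeq gene table (34945 with 1 gene, 932 with several, 9160 with none; 34741 matched). Probe sets above the table's median (6.87) on at least 2 of 8 arrays were tested, 24115 in all. limma 3.58.1 (R 4.3.3) fitted 1 mean per group over all 8 arrays with an intensity trend; the fit was tested on simulated data. Errors are standard errors and intervals are 95%. A call is a Benjamini-Hochberg adjusted p under 0.05, and "rose" and "fell" are kept for calls. The genes were accounted for one by one; of each further list, up to 4 members with the largest called change were named. Members and lists were chosen with earlier results of these data known. The alternatives were 8 fits that leave out 1 array and 11 others.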

Additional observations from a re-analysis of the deposited data

How the results depend on the processing

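The 27 differences from wild type changed sign in no alternative where they were called. Of the 17 genes called in hTNF joints 12 kept their call in all 19 alternatives, and of the 17 called in joints labelled Sphk1 null 11 did. Leaving out 1 array gave 13 to 17 sterol genes higher in hTNF joints and 12 to 16 in joints labelled Sphk1 null. The count lower in hTNF joints, 0, was 1 with only the 2 groups compared. The count lower in joints labelled Sphk1 null, 1, was 0 with only the 2 groups compared and 0 with the replicate block, 2 over the mean of a gene's probe sets, and 0 to 3 without 1 array. Over all probe sets, 7965 were called for hTNF against wild type and 4695 to 9313 without 1 array, the lowest without wild-type array 1. For joints labelled Sphk1 null against wild type 9395 were called, and 6314 to 10482 without 1 array. Between the transgenic groups 2 were called: 1 with the filter on at least 5 arrays, 6 after quantile normalization, 1 with the marrow covariate, 0 without the 3 arrays of mixed sex-linked signal, and 0 to 3 without 1 array. The cause of these moves was not tested. Arrays with the same replicate number did not deviate together in every pair (correlations from -0.167 to 0.273). Pairs of different number ran from -0.485 to 0.37. These ranges overlap, and whether the numbers mark a pairing of arrays cannot be told from them. With the replicate block 16 sterol genes were higher in hTNF joints and 15 in joints labelled Sphk1 null. Probe sets near background and 2 or 3 arrays per group limit what could be called.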
